A study of Rattus norvegicus with 3 samples.

Results

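The nuclei described here were picked by 12 genes from a single-nucleus RNA sequencing study of injured rat spinal cord. A barcode was taken when it had a unique molecular identifier (UMI, a tag that marks 1 captured RNA molecule) in at least 3 of the 5 inflammatory genes Cxcl2, Ccl3, Il1b, S100a8 and S100a9, and in at most 4 of the 7 macrophage genes Lyz2, Spp1, Cd74, Apoe, Ctsz, Ftl1 and Psap. The choice gave 55 of 5326 nuclei, called 5-gene nuclei below. Of these, 13 lay among the 906 nuclei of the HGF scaffold library and 42 among the 2168 nuclei of the scaffold library. The untreated library held 0 among 2252 nuclei.

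All animals were wild-type Sprague Dawley rats aged 17 weeks, and the tissue was the center of a spinal cord lesion, sampled on day 49 from the injury. The HGF scaffold group had received, 7 days before sampling, an implanted scaffold from which hepatocyte growth factor (HGF), the ligand of the receptor MET, is released. The scaffold group had received a scaffold with no stated HGF at the same time, and the untreated group had an injury and no implant. There was 1 library per group, the number of animals in a library was not stated, and the surgery cannot be told apart from the material in the difference from untreated cord.

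Neutrophils are short-lived granulocytes that leave the blood within hours of tissue damage and are drawn by CXC chemokines such as Cxcl1 and Cxcl2 acting on the receptor Cxcr2. Their granule proteins (Mpo, Elane, Camp, Ltf) are made in the bone marrow, so mature cells in tissue hold little mRNA for them, while S100a8 and S100a9, which form the calcium-binding dimer calprotectin, and the receptors Csf3r and Cxcr2 are still transcribed. In injured spinal cord they arrive early and are later outnumbered by macrophages and activated microglia, which can make Cxcl2, Ccl3 and Il1b as well.

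A single library stood for each group, so groups could not be tested against each other, and a choice made on measured genes leaves no test of those genes either. Values below are therefore descriptions, and intervals are 95% exact intervals that cover counting error only. The 13 HGF scaffold 5-gene nuclei summed to 20852 UMIs, with 600, 1169 and 4507 UMIs in the lowest, median and highest nucleus. The 42 scaffold 5-gene nuclei summed to 128701 UMIs, with 512, 2307.5 and 10931. The libraries had medians of 1047, 1639 and 1407.5 UMIs a nucleus in the HGF scaffold, scaffold and untreated libraries. Barcodes shared between libraries numbered 1 for HGF scaffold and scaffold, 0 for HGF scaffold and untreated and 3 for scaffold and untreated, and none of them was a 5-gene nucleus.

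The 5-gene nuclei made up 1.43% of HGF scaffold nuclei (13 of 906, interval 0.766 to 2.44) and 1.94% of scaffold nuclei (42 of 2168, interval 1.40 to 2.61). In untreated cord the share was 0 of 2252 nuclei, with an exact upper limit of 0.164%. Against a floor of 3 untreated nuclei (0.133%), the share was 10.8-fold higher in the HGF scaffold and 14.5-fold higher in the scaffold library. Those ratios to the floor leave out counting error. The HGF scaffold share was 0.741 times the scaffold share (interval 0.365 to 1.41), which holds 1, so the 2 implant libraries did not differ beyond counting error. The limit on macrophage genes did not produce the untreated 0. With those 7 genes set aside, 2172 untreated nuclei had a UMI in 0 of the 5 genes, 76 in 1, 4 in 2 and 0 in 3 or more.

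Close to the limits of the choice lay more nuclei than inside it. In the HGF scaffold library 16 nuclei, in the scaffold library 100 and in the untreated library 0 had 3 or more of the 5 genes but over 4 of the 7. These were deep nuclei, with medians of 5512 UMIs in the HGF scaffold library and 8502.5 in the scaffold library. A further 27 nuclei in the HGF scaffold library, 82 in the scaffold library and 1 in the untreated library had 2 of the 5 genes and at most 4 of the 7. The limit on the 7 genes bore on the ratio of the implant libraries. Without it the HGF scaffold share was 0.489 times the scaffold share (interval 0.316 to 0.733), which lies below 1. Depth also differed, with medians of 1047 UMIs over all HGF scaffold and 1639 over all scaffold nuclei. Its part in this ratio was not tested.

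The values that chose the nuclei come first, as a description. Cxcl2, a chemokine that draws neutrophils, had 5851 CPM (UMIs of the gene per 1e+06 UMIs of the summed nuclei) in HGF scaffold 5-gene nuclei (interval 4859 to 6986) and 3986 CPM in scaffold 5-gene nuclei (3649 to 4346). It had a UMI in 12 of 13 and in 33 of 42 of them. Oligodendrocyte nuclei, which should lack the gene, had a Cxcl2 UMI in 1.49% of nuclei in the HGF scaffold library (1 of 67, 10.3 CPM), in 6.40% in the scaffold library (8 of 125, 32.8 CPM) and in 0 of 340 in the untreated library, at median depths of 1274, 2134 and 2901.5 UMIs.

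Ccl3, a chemokine that draws monocytes and neutrophils, had 2446 CPM in HGF scaffold and 1849 CPM in scaffold 5-gene nuclei. Il1b, the secreted cytokine interleukin-1 beta, had 2973 CPM in HGF scaffold and 1267 CPM in scaffold 5-gene nuclei. The calprotectin subunit genes stood further apart between the libraries. S100a8 had 2254 CPM in HGF scaffold and 381 CPM in scaffold 5-gene nuclei, and S100a9 had 3261 CPM in HGF scaffold and 847 CPM in scaffold 5-gene nuclei. A single HGF scaffold nucleus carried 38 of the 47 S100a8 UMIs and 61 of the 68 S100a9 UMIs. Without it the ratio of HGF scaffold over scaffold 5-gene nuclei was 1.45 for S100a8, in place of 5.92, and 0.506 for S100a9, in place of 3.85.

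In oligodendrocyte nuclei a UMI was seen for Ccl3 in 2.99% of HGF scaffold and 7.20% of scaffold nuclei, and for Il1b in 2.99% and 8.80%, in the same order of libraries. For S100a8 the oligodendrocyte shares were 5.97% in the HGF scaffold and 4.80% in the scaffold library, and for S100a9 they were 4.48% in the HGF scaffold and 6.40% in the scaffold library. The 5-gene nuclei had S100a8 in 6 of 13 HGF scaffold and 16 of 42 scaffold nuclei, and S100a9 in 5 of 13 HGF scaffold and 30 of 42 scaffold nuclei. The commonest combination was Cxcl2, Ccl3 and Il1b with neither S100 gene, in 5 HGF scaffold and 11 scaffold nuclei. All 5 genes together were seen in 1 HGF scaffold and 7 scaffold nuclei.

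Over whole libraries the 5 genes were far lower in untreated cord than in either implant library. Cxcl2 had 175 CPM over all HGF scaffold nuclei, 415 CPM over all scaffold nuclei and 0.672 CPM over all untreated nuclei. In such sums fewer nuclei and less RNA per nucleus cannot be told apart. The 5-gene nuclei held 48.0% of the library's Cxcl2 UMIs in the HGF scaffold library and 21.3% in the scaffold library, with 1.43% and 1.94% of the nuclei. For the other 4 genes they held 24.8% (S100a9) to 32.6% (S100a8) in the HGF scaffold library and at most 29.7% (Ccl3) in the scaffold library. The nuclei with over 4 of the 7 macrophage genes held more of the scaffold library's UMIs for each of the 5 genes, 67.3% for Cxcl2 and 43.4% for Ccl3.

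The 5-gene nuclei were not alike. The 5 genes took 0.110% to 6.43% of a nucleus's UMIs in the HGF scaffold library, with a median of 1.04%, and 0.0366% to 13.0% in the scaffold library, with a median of 0.409%. At a line of 1%, which was drawn after seeing these values, 7 of 13 HGF scaffold and 16 of 42 scaffold nuclei were high-share nuclei, and 6 and 26 were low-share nuclei in the same order of libraries. The high-share nuclei held 94.0% of the 5-gene UMIs of all 5-gene nuclei in the HGF scaffold library and 78.1% in the scaffold library. The line is a range and not a border between types. The nuclei on either side of it had 1.04% and 0.469% in the HGF scaffold library and 1.01% and 0.847% in the scaffold library.

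**Figure D1:**
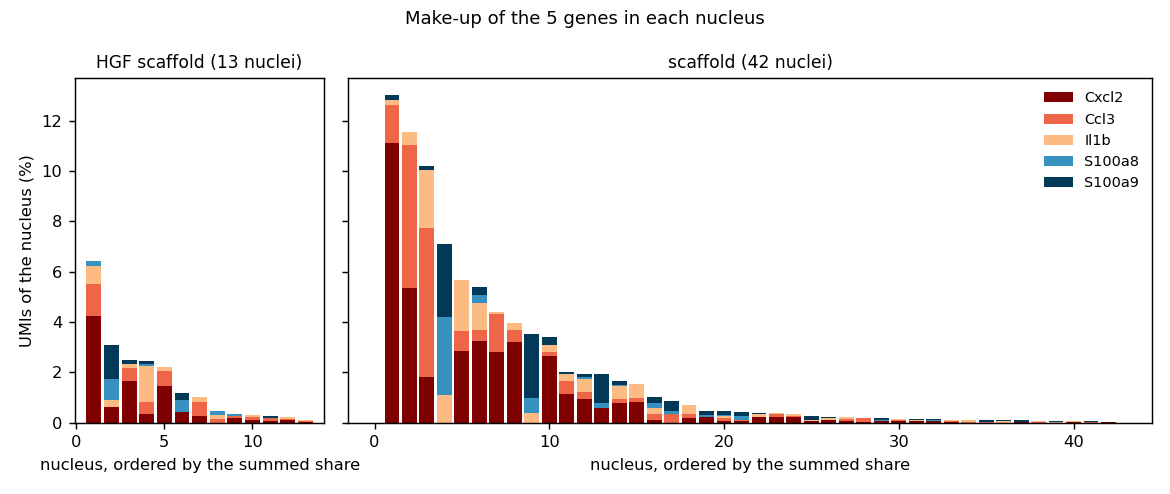
Percent of each nucleus's UMIs in Cxcl2, Ccl3, Il1b, S100a8 and S100a9 (stacked bars, y axis) for the 13 HGF scaffold and the 42 scaffold 5-gene nuclei, ordered along the x axis by the summed percent. The tallest bar reaches 6.43% in the HGF scaffold library and 13.0% in the scaffold library, and the S100 genes make up most of the bar in a minority of nuclei.

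High-share nuclei differed in which of the 5 genes led, by UMIs, which in this 3′ assay count captured molecules and are not divided by length. Cxcl2 led in 3 of 7 HGF scaffold and 10 of 16 scaffold high-share nuclei. The nucleus with the largest share had 944 UMIs, was in the scaffold library and held 105 Cxcl2 UMIs, 14 of Ccl3 and 2 of Il1b. The next scaffold nucleus had 1305 UMIs, of which 70 were Cxcl2 and 74 Ccl3. Others had calprotectin without chemokines: a scaffold nucleus of 548 UMIs held 17 S100a8 and 16 S100a9 UMIs and 0 of Cxcl2 and Ccl3, and another of 512 UMIs held 13 S100a9 UMIs and 0 of both. The HGF scaffold nucleus with the most calprotectin, of 4507 UMIs, held 29 Cxcl2 UMIs beside it and 0 of Ccl3.

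Low-share nuclei rested on few molecules. They held 3 to 5 UMIs of the 5 genes in the HGF scaffold library and 3 to 36 in the scaffold library, against up to 139 and 151 in high-share nuclei of the same libraries. Scaffold low-share nuclei were deeper, with a median of 3788.5 UMIs, against 1027 in scaffold high-share nuclei. In the HGF scaffold library the medians were 1155 UMIs in low-share and 1300 in high-share nuclei. Nuclei with 3 or more markers of a lineage outside the immune system numbered 6 of 6 low-share and 3 of 7 high-share nuclei in the HGF scaffold library, and 21 of 26 low-share and 4 of 16 high-share nuclei in the scaffold library. Such markers were common in all nuclei: those without them numbered 4 of 13 5-gene nuclei and 397 of all 906 nuclei in the HGF scaffold library, and 17 of 42 5-gene nuclei and 612 of all 2168 nuclei in the scaffold library. Oligodendrocyte markers reached 3 in 6 of 13 HGF scaffold and 19 of 42 scaffold nuclei, fibroblast markers in 3 and 13, and neuronal markers in 0 and 6, in the same order of libraries. Whether such nuclei were doublets or had taken up free RNA was not tested.

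**Figure D2:**
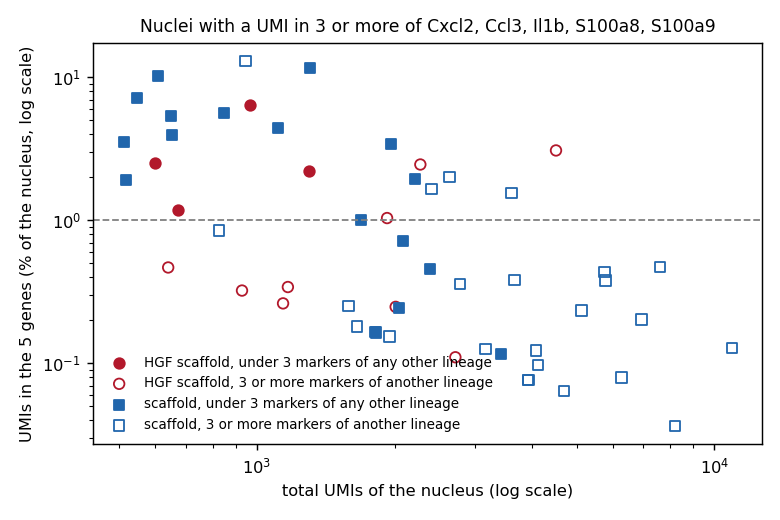
Percent of UMIs in the 5 genes (y axis, log scale) against total UMIs (x axis, log scale) for each 5-gene nucleus, circles for HGF scaffold and squares for scaffold, open where 3 or more markers of a lineage outside the immune system were seen, with a dashed line at 1%. Open symbols sit mostly below the line, in 6 of 6 HGF scaffold and 21 of 26 scaffold nuclei there.

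The neutrophil label was set against markers that the choice did not use. Csf3r, the receptor for granulocyte colony-stimulating factor, had 3 UMIs in 2 of 13 HGF scaffold and 4 UMIs in 4 of 42 scaffold 5-gene nuclei. That was 144 and 31.1 CPM, against 46.1 and 36.2 CPM in the phagocyte nuclei described next, HGF scaffold before scaffold. Cxcr2, the receptor for Cxcl1 and Cxcl2, had 1 UMI in the HGF scaffold and 2 UMIs in the scaffold 5-gene nuclei. Mpo, Elane, Camp, Ltf, Ngp and Cebpe, genes of granules and granulocyte maturation, had 0 UMIs in both. The exact upper limits were 177 CPM in the HGF scaffold and 28.7 CPM in the scaffold nuclei. Lcn2, which encodes the iron-trapping granule protein lipocalin-2, had 4 UMIs in 3 HGF scaffold and 8 UMIs in 6 scaffold nuclei. The granulocyte markers were thus at or near 0, and the nuclei are called here by the genes that chose them and not as neutrophils.

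General leukocyte genes were present. Ptprc, which encodes the pan-leukocyte phosphatase CD45, had a UMI in 10 of 13 HGF scaffold and 26 of 42 scaffold 5-gene nuclei. Itgam, the CD11b integrin chain of granulocytes, macrophages and microglia, had 240 CPM in HGF scaffold and 342 CPM in scaffold 5-gene nuclei. Csf1r, the growth factor receptor of macrophages and microglia, had 1 UMI in the HGF scaffold and 31 UMIs in 18 of 42 scaffold 5-gene nuclei. Of the 5 general myeloid genes Itgam, Lyn, Csf1r, Ptprc and Fyb1, 3 or more were seen in 7 of 13 HGF scaffold and 24 of 42 scaffold 5-gene nuclei.

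To see what set the 5-gene nuclei apart beyond their defining genes, they were compared with the other myeloid nuclei of the same library, those with 3 or more of these general genes. There were 390 such nuclei in the HGF scaffold library, of which 134 were Lyz2, Spp1 and Cd74 phagocytes with 5 or more of the 7 macrophage genes, and 1022 in the scaffold library, of which 485 were phagocytes. The reference was not cleared of nuclei that only the limit on the 7 macrophage genes had kept out of the choice. Those numbered 16 in the HGF scaffold and 100 in the scaffold library, and how many of them were in the reference is not given. Their levels of the genes below are not given either, so the ratios do not separate the 5-gene nuclei from them. A gene was compared when it had at least 20 UMIs in both groups of nuclei together, and counted as different when the CPM differed at least 2-fold. In the HGF scaffold library 986 of 6708 genes (14.7%) were at least 2-fold higher and 624 (9.3%) at least 2-fold lower in 5-gene nuclei, 24.0% in all. In the scaffold library 811 of 10426 genes (7.78%) were higher and 933 (8.95%) lower, 16.7% in all. Scaling by trimmed means (TMM) turned the HGF scaffold split to 531 higher and 1150 lower, with a factor of 1.37, and left the scaffold split at 774 and 972. A stricter count, chosen after seeing the data, asked the whole interval to lie above 2-fold and took 109 genes (1.62%) in the HGF scaffold and 75 genes (0.719%) in the scaffold library.

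Genes of inflammatory feedback were counted first. Of the list of NF-kappaB response genes, 13 of 17 compared genes in the HGF scaffold library and 8 of 25 in the scaffold library were at least 2-fold higher, and 1 and 2 were lower. The list's median log2 ratio was 1.21 over 9 genes with enough depth in the HGF scaffold library and 0.42 over 17 in the scaffold library, against -0.27 and -0.11 over all genes of such depth. Nfkbia, the inhibitor that NF-kappaB itself induces, had 59 UMIs in 11 of 13 HGF scaffold and 233 UMIs in 35 of 42 scaffold 5-gene nuclei. It was 5.51-fold (interval 4.13 to 7.25) and 4.47-fold (3.88 to 5.13) above the other myeloid nuclei, HGF scaffold before scaffold. Nos2, inducible nitric oxide synthase, was 21.1-fold higher in the HGF scaffold (12.5 to 34.8, 9 of 13 nuclei) and 5.35-fold higher in the scaffold 5-gene nuclei (4.09 to 6.91, 24 of 42 nuclei).

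Chemokine genes outside the choice followed Cxcl2 and Ccl3. Cxcl1, a ligand of Cxcr2, had 18 UMIs in 5 HGF scaffold and 34 UMIs in 9 scaffold 5-gene nuclei, which was 35.4-fold (interval 17.8 to 69.8) and 8.64-fold (5.74 to 12.7) above other myeloid nuclei, HGF scaffold before scaffold. Cxcl3, another Cxcr2 ligand, was 13.5-fold higher in the HGF scaffold and 5.08-fold higher in the scaffold 5-gene nuclei, but 12 of its 16 HGF scaffold UMIs lay in 1 nucleus, without which the ratio was 3.54. Ccrl2, an atypical receptor that presents chemerin, was 10.3-fold higher in the scaffold 5-gene nuclei (5.98 to 17.0), and 6.43-fold without the nucleus that held 8 of its 21 UMIs. Cxcl1, Cxcl2 and Cxcl3 are alike in sequence, and how the counting treated reads that match more than 1 of them is not given in the sources used here.

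In the interleukin-1 list, 5 of 10 compared genes in the HGF scaffold and 3 of 15 in the scaffold library were at least 2-fold higher. Il1rn, which encodes the receptor antagonist that blocks interleukin-1, had 51 UMIs in 7 HGF scaffold and 62 UMIs in 23 scaffold 5-gene nuclei. Its ratios to other myeloid nuclei were 25.7 (interval 17.7 to 36.9) in the HGF scaffold and 4.56 (3.44 to 5.96) in the scaffold library. The agonist gene Il1b and the antagonist gene Il1rn were thus both high in the same summed nuclei. Il1r2, the decoy receptor for interleukin-1 that neutrophils carry, was 23.8-fold higher in the HGF scaffold 5-gene nuclei (11.7 to 46.7) and 1.87-fold higher in the scaffold ones (0.672 to 4.22), where the interval holds 1. With 10 of its 15 HGF scaffold UMIs in 1 nucleus, the ratio without that nucleus was 10.1.

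Among genes tied to neutrophil granules, few could be compared. Of 30 granule, maturation and antimicrobial genes in the files, 6 could be compared in the HGF scaffold and 10 in the scaffold library, and 4 and 6 were at least 2-fold higher. Slpi, which encodes a secreted inhibitor of neutrophil elastase, had 46 UMIs in 6 HGF scaffold and 105 UMIs in 20 scaffold 5-gene nuclei. It was 30.6-fold higher in the HGF scaffold 5-gene nuclei (interval 20.5 to 45.6), 12.8-fold without the nucleus that held 31 of the UMIs, and 7.74-fold higher in the scaffold 5-gene nuclei (6.19 to 9.59). Lcn2 was 5.35-fold higher in the scaffold 5-gene nuclei (2.19 to 11.4). Neutrophil receptor and signalling genes were at least 2-fold higher for 7 of 20 in the HGF scaffold and 7 of 27 in the scaffold library, but their median log2 ratios were -0.70 and -0.11, the first below that of all genes and the second close to it.

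G0s2, an inhibitor of the triglyceride lipase Pnpla2 that is abundant in blood neutrophils, had 21 UMIs in 5 of 13 HGF scaffold and 214 UMIs in 26 of 42 scaffold 5-gene nuclei. It was 24.1-fold (interval 13.4 to 42.4) and 12.6-fold (10.7 to 14.8) above other myeloid nuclei, HGF scaffold before scaffold. Trem1, a receptor of neutrophils and monocytes that amplifies inflammation, had 13 UMIs in 11 of 42 scaffold 5-gene nuclei (8.20-fold, 4.10 to 15.3) and 0 in the HGF scaffold ones. Srgn, the core protein of granule proteoglycan in blood cells, was 48.3-fold higher in the HGF scaffold 5-gene nuclei (33.0 to 71.1) and 6.58-fold higher in the scaffold ones (4.85 to 8.80). A single nucleus gave 36 of the 62 HGF scaffold Srgn UMIs, and without it the ratio was 25.9. In the untreated library these genes were rare: over its 301 myeloid nuclei that were not phagocytes, G0s2 had 5 UMIs, Slpi 0 and Trem1 1.

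**Figure D3:**
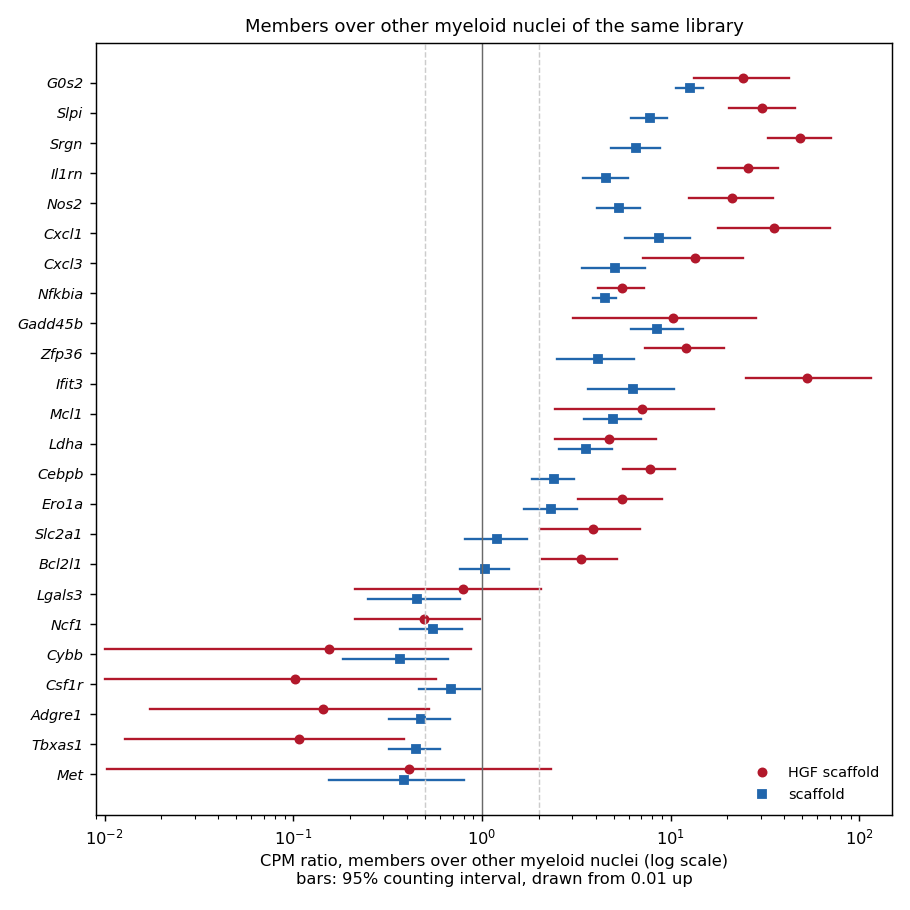
CPM ratio of 5-gene nuclei ("members") over other myeloid nuclei of the same library (x axis, log scale) for 24 named genes, with 95% counting intervals, circles for HGF scaffold and squares for scaffold. Genes from G0s2 to Ero1a sit to the right of 1 in both libraries and Lgals3 to Met to the left, while Slc2a1 and Bcl2l1 sit at 3.89 and 3.37 in the HGF scaffold and at 1.21 and 1.04 in the scaffold library.

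Immediate early and stress genes were at least 2-fold higher for 9 of 16 in the HGF scaffold and 7 of 25 in the scaffold library, and lower for 0 in both. Zfp36, which encodes a protein that speeds the decay of inflammatory mRNAs, was 12.1-fold higher in the HGF scaffold 5-gene nuclei (interval 7.33 to 19.3, 10 of 13 nuclei) and 4.10-fold higher in the scaffold ones (2.50 to 6.40, 15 of 42 nuclei). Gadd45b, induced by stress and NF-kappaB, was 10.3-fold higher in the HGF scaffold and 8.52-fold higher in the scaffold 5-gene nuclei. Hspa1a, an inducible heat shock protein, was confined in the scaffold 5-gene nuclei to 3 of 42, with 22 UMIs (90.2-fold, 38.7 to 234), and 13 of them lay in 1 nucleus. Mcl1, a survival factor on which neutrophils depend, was 7.08-fold higher in the HGF scaffold and 4.98-fold higher in the scaffold 5-gene nuclei, while Bcl2, the related lymphocyte survival gene, was lower at 0.425 in the scaffold ones (0.226 to 0.731).

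The list of itaconate, arginine and hypoxic glycolysis genes had 10 of 24 at least 2-fold higher in the HGF scaffold and 10 of 27 in the scaffold library. Ldha, lactate dehydrogenase A, was 4.71-fold higher in the HGF scaffold (interval 2.43 to 8.38) and 3.58-fold higher in the scaffold 5-gene nuclei (2.55 to 4.91). Slc2a1, the glucose transporter GLUT1, was 3.89-fold higher in the HGF scaffold 5-gene nuclei (2.02 to 6.88), and 1.21-fold in the scaffold ones (0.809 to 1.74), which holds 1. Car4, a membrane carbonic anhydrase, was 8.79-fold higher in the scaffold 5-gene nuclei (5.94 to 12.7, 19 of 42 nuclei), and its 4 HGF scaffold UMIs lay in 1 nucleus. Interferon-stimulated genes were fewer, 3 of 12 higher in the HGF scaffold and 4 of 20 in the scaffold library. Among them Usp18 was lower, with 1 UMI in the HGF scaffold and 1 UMI in the scaffold 5-gene nuclei (log2 ratios -0.97 and -3.17). Ifit3, an antiviral effector, was 53.1-fold higher in the HGF scaffold 5-gene nuclei (25.0 to 115, with 18 UMIs in 3 of 13 nuclei, and 24.3-fold without the nucleus that held 10 of them) and 6.36-fold higher in the scaffold ones (3.67 to 10.5, 8 of 42 nuclei).

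Macrophage and microglial genes are set beside the shares over all compared genes. Those were 14.7% at least 2-fold higher and 9.3% lower in the HGF scaffold library. In the scaffold library they were 7.78% higher and 8.95% lower. In lists this short, counts near those shares are not read as a result. Of the monocyte and macrophage list, 0 of 27 compared genes were at least 2-fold higher and 7 lower in the HGF scaffold library, and 2 of 29 were higher and 4 lower in the scaffold library. Of the microglia list, 0 of 7 were higher and 2 lower in the HGF scaffold library, and 0 of 10 were higher and 1 lower in the scaffold library. Adgre1, the macrophage surface protein F4/80, was at 0.144 of the other myeloid level in the HGF scaffold 5-gene nuclei (interval 0.0174 to 0.523) and at 0.476 in the scaffold ones (0.323 to 0.678). Csf1r was at 0.102 in the HGF scaffold (0.00256 to 0.569) and 0.688 in the scaffold 5-gene nuclei (0.466 to 0.981). Tbxas1, thromboxane synthase, was at 0.107 in the HGF scaffold and 0.446 in the scaffold 5-gene nuclei. Csf1r was 1 of the 5 general genes that picked the other myeloid nuclei, so its level there is raised by that choice. In scaffold high-share nuclei Csf1r had 360 CPM, Adgre1 540 CPM and Tbxas1 540 CPM. The other myeloid nuclei of that library had 350, 506 and 749 CPM in the same order. HGF scaffold high-share nuclei held 1 UMI of Csf1r, 0 of Adgre1 and 1 of Tbxas1. The limit on the 7 macrophage genes bears on these values, since genes that go with them are held down by the choice itself. Of those 7, Ftl1, the ferritin light chain, was nevertheless higher, 4.74-fold in the HGF scaffold and 5.13-fold in the scaffold 5-gene nuclei, and reads of ferritin genes can be shared with near-identical copies.

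In the summed 5-gene nuclei the phagocyte oxidase, which makes superoxide in neutrophils and macrophages, did not follow the chemokines. Of its 7 compared genes, 1 was at least 2-fold higher and 3 lower in the HGF scaffold library, and 0 were higher and 1 lower in the scaffold library. Cybb, its membrane catalytic subunit, was at 0.155 in the HGF scaffold 5-gene nuclei (interval 0.00392 to 0.873) and at 0.369 in the scaffold ones (0.184 to 0.663). Ncf1, a cytosolic subunit of it, was at 0.492 in the HGF scaffold (0.211 to 0.975) and 0.550 in the scaffold 5-gene nuclei (0.370 to 0.787). After thinning each nucleus to 500 UMIs, the scaffold Ncf1 log2 ratio turned to 0.91. In scaffold high-share nuclei Ncf1 had 405 CPM, against 424 CPM in other myeloid nuclei, and Cybb had 0 UMIs. The oxidase list summed to 1351 CPM in scaffold high-share and 657 CPM in scaffold low-share nuclei. Met, the HGF receptor, had 1 UMI in the HGF scaffold and 7 UMIs in 5 scaffold 5-gene nuclei, and the list of HGF and MET genes had 0 of 9 higher and 2 of 9 lower in each library.

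Promoters were looked up in RefSeq (assembly GRCr8) for 12 genes, and those of Cxcl2, Cxcl1, G0s2 and Nfkbia are printed because they are the 4 that hold a kappaB match. They are 300 bases each and run from before the gene start to just after it, each read on the gene's own strand. Capitals mark matches to GGGA, then any 4 bases, then CC, a form of the kappaB motif bound by NF-kappaB, searched on both strands. The Cxcl2 promoter is chr14:17467206-17467505 (minus strand), that of Cxcl1 chr14:17479272-17479571 (minus strand), that of G0s2 chr13:107335899-107336198 (minus strand) and that of Nfkbia chr6:78597023-78597322 (minus strand).
Cxcl2: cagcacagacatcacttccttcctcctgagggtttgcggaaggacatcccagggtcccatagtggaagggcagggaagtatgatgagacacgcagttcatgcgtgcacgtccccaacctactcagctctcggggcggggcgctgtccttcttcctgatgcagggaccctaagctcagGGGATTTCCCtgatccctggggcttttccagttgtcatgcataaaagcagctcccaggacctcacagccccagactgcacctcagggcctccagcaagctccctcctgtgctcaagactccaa
Cxcl1: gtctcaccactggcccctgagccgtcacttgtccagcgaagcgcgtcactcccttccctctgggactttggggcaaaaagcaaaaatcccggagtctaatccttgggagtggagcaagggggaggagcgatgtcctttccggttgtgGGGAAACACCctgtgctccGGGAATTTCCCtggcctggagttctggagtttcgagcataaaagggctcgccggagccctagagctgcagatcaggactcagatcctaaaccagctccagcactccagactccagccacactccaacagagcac
G0s2: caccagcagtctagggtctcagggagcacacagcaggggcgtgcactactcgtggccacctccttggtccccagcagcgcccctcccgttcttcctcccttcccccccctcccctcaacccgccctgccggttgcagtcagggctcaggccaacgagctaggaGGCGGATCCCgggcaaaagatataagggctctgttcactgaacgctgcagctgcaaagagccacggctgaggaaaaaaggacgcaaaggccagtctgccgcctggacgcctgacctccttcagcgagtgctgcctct
Nfkbia: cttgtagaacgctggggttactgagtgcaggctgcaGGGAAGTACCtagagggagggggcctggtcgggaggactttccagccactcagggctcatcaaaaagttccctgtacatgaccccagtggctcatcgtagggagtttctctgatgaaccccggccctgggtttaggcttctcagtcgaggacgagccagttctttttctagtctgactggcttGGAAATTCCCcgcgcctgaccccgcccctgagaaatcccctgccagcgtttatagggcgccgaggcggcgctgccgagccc

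The table of promoters matched 8 of the 12 genes (Cxcl2, Il1b, S100a9, G0s2, Cxcl1, Il1rn, Nfkbia and Srgn), and Ccl3, S100a8, Slpi and Cxcl3 are named only. The kappaB letters were in 4 of the 8 and not in those of Il1b, S100a9, Il1rn and Srgn, against 19.3% of all 33469 promoters in the table. The Cxcl2 match began 73 bases and the G0s2 match 87 bases before the gene start (positions -73 and -87). Cxcl1 had 3 matches, of which 2 overlap, and Nfkbia had 2. A form of the C/EBP motif, TTGCNNAA, was in the Cxcl2 and Il1b promoters, 2 of 8, against 10.6% of all promoters. The AP-1 letters TGANTCA were in 0 of 8, against 7.33%, and TATAAA was in 4 of 8, against 14.2%. A match of letters is not a bound site.

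High-share and low-share nuclei are set side by side as a description, since the line was drawn on the 5 genes and genes that go with them had to follow it. In the scaffold library the NF-kappaB list summed to 19853 CPM in high-share and 3202 CPM in low-share nuclei, against 3036 CPM in other myeloid nuclei. Neutrophil receptor and signalling genes summed to 12560 CPM in high-share and 1935 CPM in low-share nuclei, against 2302 CPM in other myeloid nuclei. G0s2 alone gave 176 of the 279 UMIs of that list in high-share nuclei. The monocyte and macrophage list was also higher in high-share nuclei, at 7473 CPM against 3925 CPM in low-share nuclei. Oligodendrocyte markers ran the other way in the scaffold library, with 1846 CPM in high-share and 3841 CPM in low-share nuclei, and neuronal markers had 675 CPM in high-share and 2132 CPM in low-share nuclei. G0s2 had 7923 CPM in high-share scaffold nuclei (15 of 16 with a UMI) and 357 CPM in low-share scaffold nuclei (11 of 26). Nfkbia had 7338 CPM in high-share (16 of 16) and 657 CPM in low-share scaffold nuclei (19 of 26).

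In the HGF scaffold library high-share and low-share nuclei were closer for the NF-kappaB list and for oligodendrocyte markers, but not for every list. The NF-kappaB list summed to 14126 CPM in high-share and 7321 CPM in low-share nuclei, against 3081 CPM in other myeloid nuclei. Oligodendrocyte markers had 3511 CPM in high-share and 3022 CPM in low-share nuclei, against 1772 CPM in other myeloid nuclei. The monocyte and macrophage list was lower in high-share nuclei here, at 3756 CPM against 5113 CPM in low-share nuclei. The list of further chemokines and their receptors had 4001 CPM in high-share and 232 CPM in low-share nuclei. In the scaffold library that list had 4097 CPM in high-share and 366 CPM in low-share nuclei. Cxcl1 had 18 UMIs in 5 of 7 high-share and 0 UMIs in 6 low-share nuclei of the HGF scaffold library. Across the high and low scaffold nuclei, 66 of 1686 compared genes (3.91%) had the whole interval above 2-fold. Nothing is read from that count.

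**Figure D4:**
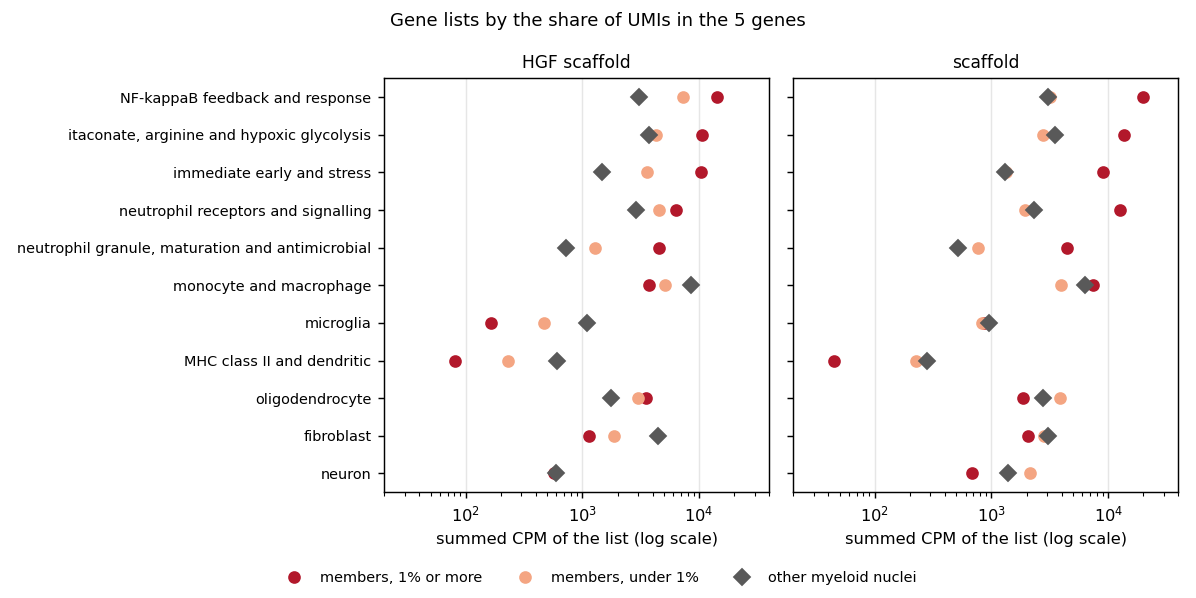
Summed CPM of 11 gene lists (x axis, log scale) in high-share 5-gene nuclei (1% or more of UMIs in the 5 genes), low-share 5-gene nuclei (under 1%) and other myeloid nuclei (diamonds), HGF scaffold on the left and scaffold on the right. In the scaffold library low-share nuclei lie beside the other myeloid nuclei for the NF-kappaB list, at 3202 and 3036 CPM, and high-share nuclei lie at 19853 CPM.

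The nuclei were also grouped with the 12 genes of the choice left out. Leiden clustering of all 5326 nuclei on 2000 variable genes gave 18 clusters, and 5-gene nuclei lay in 11 of them. A single cluster of 39 nuclei, 6 from the HGF scaffold, 33 from the scaffold and 0 from the untreated library, held 18 of the 55, among them 16 of the 23 high-share nuclei. Of the cluster's remaining nuclei, 2 in the HGF scaffold and 13 in the scaffold library had 3 or more of the 5 genes but over 4 of the 7, 4 scaffold nuclei had 2 of the 5 and 2 had 1. All 39 nuclei had a UMI in at least 1 of the 5 genes, although none of these genes was used. Over whole libraries, 68.9% of HGF scaffold and 63.7% of scaffold nuclei had a UMI in 0 of the 5. Cxcl1 and Cxcl3, alike in sequence to Cxcl2, were not among the genes left out. The other 37 5-gene nuclei were spread, with 12 in a cluster of 595 nuclei whose leading genes include the myelin gene Mobp and 7 in a cluster of 707 nuclei whose leading genes include Arg1 and C3ar1.

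Nearest neighbours were also counted. They are the links of the graph that the clustering divided, so they give no separate support for the cluster. Among the 15 nearest nuclei, high-share nuclei had a median of 4 other 5-gene nuclei in the HGF scaffold library (0 to 11) and 8 in the scaffold library (0 to 10). Low-share nuclei had a median of 0 in both (0 to 6 in the HGF scaffold and 0 to 5 in the scaffold library). The cluster depended on the resolution of the clustering. At a resolution of 0.5 in place of 1 the cluster with the most 5-gene nuclei had 941 nuclei, 27 of them 5-gene nuclei and 45 untreated, and at 2 it had 80 nuclei, 25 of them 5-gene nuclei and 0 untreated.

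The 5-gene nuclei were also divided by a UMI in S100a8 or S100a9, which 8 of 13 HGF scaffold and 31 of 42 scaffold nuclei had. By the choice itself, the 5 HGF scaffold and 11 scaffold nuclei without such a UMI all had Cxcl2, Ccl3 and Il1b. Of genes compared, 18.9% of 95 in the HGF scaffold and 21.2% of 1686 in the scaffold library were at least 2-fold higher in nuclei with an S100 UMI, and 13.7% and 11.3% were at least 2-fold lower. Slpi, the elastase inhibitor, had 3341 CPM with and 676 CPM without an S100 UMI in the HGF scaffold library (ratio 4.95, interval 2.08 to 14.3), but the ratio was 1.78 (0.567 to 6.09) without the nucleus that held 31 of the 46 UMIs. In the scaffold library Slpi had 960 CPM with and 357 CPM without an S100 UMI (2.69, 1.44 to 5.58), and 2.14 (1.13 to 4.47) without its top nucleus. Srgn had 4511 CPM with and 901 CPM without in the HGF scaffold library (5.01, 2.37 to 12.2, and 2.68 without its top nucleus), and 450 CPM with and 389 CPM without in the scaffold library (1.16, 0.600 to 2.40), which holds 1.

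The last comparison set the HGF scaffold 5-gene nuclei against the scaffold ones. With 13 and 42 nuclei from 1 library each, it compares those libraries and not the conditions. Of 2006 genes compared, 202 (10.1%) were at least 2-fold higher and 349 (17.4%) at least 2-fold lower in the HGF scaffold nuclei, 27.5% in all. Scaling by trimmed means, with a factor of 1.34, turned the split to 95 higher and 592 lower. The whole interval lay above 2 for 24 genes (1.2%) and below 0.5 for 27 genes (1.35%).

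Of the NF-kappaB list, 5 of 12 compared genes were at least 2-fold higher and 0 lower in the HGF scaffold 5-gene nuclei, and of the immediate early and stress list 5 of 11 were higher and 1 lower. High-share nuclei gave 12247 of the 20852 UMIs in the HGF scaffold and 22213 of the 128701 UMIs in the scaffold 5-gene nuclei, so the ratios below mix unlike shares of them, and values in high-share nuclei alone are added. Dusp1, a phosphatase that switches off stress kinases, had 31 UMIs in 4 of 13 HGF scaffold and 8 UMIs in 7 of 42 scaffold nuclei, a ratio of 23.9 (interval 10.8 to 60.2), but 22 of the 31 lay in 1 nucleus, and without it the ratio was 8.86. In high-share nuclei the Dusp1 ratio was 17.5 (5.43 to 89.9). Il1r2 had 15 UMIs in 5 HGF scaffold and 6 UMIs in 5 scaffold nuclei (15.4, interval 5.66 to 48.5, and 6.56 without its top nucleus). Zfp36 had 24 UMIs in 10 of 13 HGF scaffold and 22 UMIs in 15 of 42 scaffold nuclei (6.73, 3.62 to 12.6), 5.37 without its top nucleus and 3.26 (1.43 to 7.92) in high-share nuclei. Srgn had a ratio of 6.83 (4.68 to 9.99), which was 3.66 without its top nucleus and 2.34 (1.53 to 3.62) in high-share nuclei. Il1rn had 5.08 (3.43 to 7.47), which was 3.13 without its top nucleus and 2.12 (1.37 to 3.30) in high-share nuclei.

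For several of these genes the other myeloid nuclei gave a measure of the difference between the libraries outside the 5-gene nuclei. RT1-A1, a class I histocompatibility gene with near-identical relatives, was 11.9-fold higher in HGF scaffold than in scaffold 5-gene nuclei (interval 5.85 to 25.3), 6.53-fold (2.34 to 22.5) in high-share nuclei, and was also 3.54-fold higher in the other myeloid nuclei of the HGF scaffold library (3.07 to 4.08). Zfp36 was 2.28-fold higher in those other myeloid nuclei (1.73 to 2.98). For Srgn the other myeloid ratio was 0.931 (0.680 to 1.25), for Il1rn 0.901 (0.703 to 1.14) and for Dusp1 1.18 (0.832 to 1.64), each holding 1. The difference of these differences was not tested.

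Cebpb, which encodes a transcription factor of granulocytes and macrophages, was 4.75-fold higher in HGF scaffold 5-gene nuclei (interval 3.22 to 6.97), with 50 UMIs in 7 of 13 nuclei against 65 UMIs in 23 of 42 scaffold nuclei. The Cebpb ratio was 1.70 (1.11 to 2.61) in high-share nuclei, 2.44 with equal weight per nucleus and 1.09 after thinning each nucleus to 500 UMIs. Nfkbia had a ratio of 1.56 (1.15 to 2.09), but its direction turned to 0.545 (0.388 to 0.755) in high-share nuclei, 0.621 after thinning and 0.762 with equal weight per nucleus. Mcl1 had 0.903 (0.313 to 2.14), which holds 1. G0s2 lay lower in the HGF scaffold 5-gene nuclei, at 0.606 (0.367 to 0.950) and 0.206 (0.123 to 0.328) in high-share nuclei, and it was also lower in the other myeloid nuclei of that library, at 0.317 (0.220 to 0.444). Slpi was 2.70-fold higher (1.87 to 3.86), but 31 of its 46 UMIs lay in 1 nucleus, without which the ratio was 1.12. Of the 5 genes of the choice, Cxcl2 had a ratio of 1.47, which was 1.02 without its top nucleus, and Il1b had 2.35, which was 1.28 without it.

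**Figure D5:**
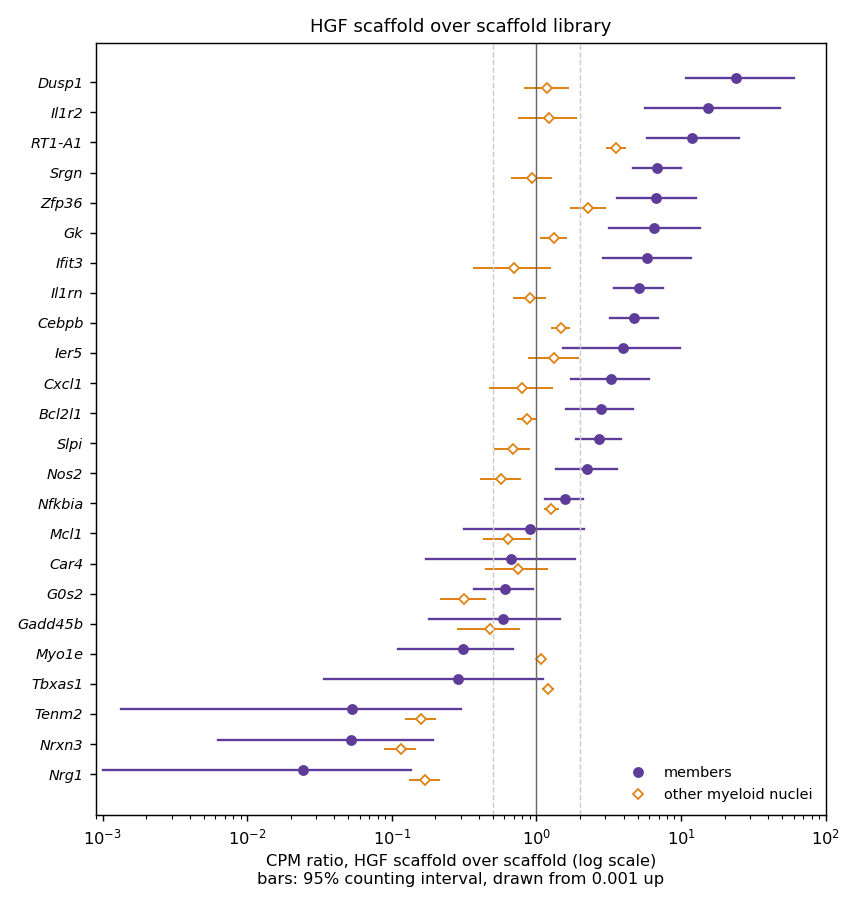
CPM ratio of HGF scaffold over scaffold (x axis, log scale) for 24 named genes in 5-gene nuclei ("members", filled circles) and in other myeloid nuclei (open diamonds), with 95% counting intervals. RT1-A1 lies to the right of 1 in both sets of nuclei, at 11.9 and 3.54, while Srgn lies at 6.83 in 5-gene nuclei and 0.931 in other myeloid nuclei.

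Genes at least 2-fold lower in the HGF scaffold 5-gene nuclei included genes of neurons and other cells. Nrg1, which encodes the growth factor neuregulin 1, had 1 UMI in HGF scaffold and 255 UMIs in scaffold 5-gene nuclei, of which 183 lay in 1 nucleus (ratio 0.0242, interval 0.000610 to 0.136). Nrxn3, a synaptic adhesion gene, had 2 UMIs in HGF scaffold and 236 in scaffold 5-gene nuclei, and Tenm2, another synaptic adhesion gene, had 1 and 116 in the same order. A single scaffold nucleus held 103 of the Nrxn3 UMIs, and a single one held 59 of the Tenm2 UMIs. Most of the scaffold UMIs of these genes lay in low-share nuclei, 240 of 255 for Nrg1, 232 of 236 for Nrxn3 and 111 of 116 for Tenm2. Of all UMIs of the scaffold 5-gene nuclei, low-share nuclei held 106488 of 128701. Nrg1 was also lower in the other myeloid nuclei of the HGF scaffold library, at 0.169 (0.134 to 0.210). Neuronal markers summed to 336 CPM in HGF scaffold and 1880 CPM in scaffold 5-gene nuclei, and their part in these ratios was not tested.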

How the data were processed

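Single-nucleus RNA of 3 libraries was analysed, 1 per group, grouped by the treatment label. Per the labels' protocols, a kit made for neuronal tissue gave the nuclei, which were captured with 10x Genomics 3′ reagents. The deposited values are UMI counts per gene and nucleus, not normalized, and the submitters' processing notes name Cell Ranger 6.0.1. The genome build, the annotation and the strand setting are not given in the sources used here. The deposited barcodes had at least 500 UMIs, and no further nucleus was removed.

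The 55 nuclei were found by the rule in the text. The members, the 26 gene lists (419 of 446 entries found among 17328 genes) and the comparisons were chosen with earlier results of these data known. Of 6 general myeloid genes named beforehand, 5 were in the files as used here. Oligodendrocyte nuclei had at least 5 of 10 markers. Counts were summed per library and set of nuclei and scaled to CPM by the sum of all UMIs. CPM values carry exact Poisson intervals, ratios exact conditional intervals and shares Clopper-Pearson intervals, at 95%. In ratios, a 0 was read as 3 counts. No p-value is given.

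Genes were named by a rule: in each list, up to 4 with the largest ratio over other myeloid nuclei in the scaffold library and up to 2 in HGF scaffold over scaffold, and over all genes the 10 with the highest and the 10 with the lowest interval bound in each comparison. It picked 119 genes, of which 45 are followed here through every alternative. Granulocyte markers were checked at any level. Scrublet called 1 nucleus in the HGF scaffold, 1 in the scaffold and 0 in the untreated library (0.110%, 0.0461% and 0%, against expected 0.725%, 1.73% and 1.80%), too few for the calls to be relied on, and none of the 55 was removed. Mitochondrial genes were not analysed here. The interval code was tested on simulated data. Analyses used Python 3.11.15, NumPy 2.4.6, SciPy 1.17.1, pandas 2.3.3, scanpy 1.11.5 (counts scaled to 10000 a nucleus and logged, 30 components, 15 neighbours) and leidenalg 0.10.2.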

Additional observations from a re-analysis of the deposited data

Results flagged for a closer look

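In 5-gene nuclei divided by a UMI in S100a8 or S100a9, 3 genes had intervals on opposite sides of 1 in the 2 implant libraries, and the difference between the libraries was not tested. The G0s2 log2 ratio, nuclei with over nuclei without such a UMI, was 3.89 in the HGF scaffold library (20 UMIs in 4 of 8 nuclei with and 1 UMI in 5 nuclei without) and -1.61 in the scaffold library (109 UMIs in 19 of 31 nuclei with and 105 UMIs in 7 of 11 nuclei without). Without the top nucleus of the higher side the G0s2 ratios were 14.3 (interval 2.11 to 610) in the HGF scaffold and 0.427 (0.314 to 0.584) in the scaffold library. The Il1rn log2 ratio was 1.996 in the HGF scaffold and -1.10 in the scaffold library, and the Nfkbia log2 ratio was 1.39 in the HGF scaffold and -1.36 in the scaffold library. Without the top nucleus the HGF scaffold intervals held 1, at a ratio of 2.22 (0.951 to 5.76) for Il1rn and 1.80 (0.907 to 3.77) for Nfkbia, while the scaffold ratios stayed below 1, at 0.515 (0.291 to 0.936) for Il1rn and 0.608 (0.447 to 0.834) for Nfkbia.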

How the results depend on the processing

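No paired analysis was possible because each group has 1 library. The limits are the 20852 UMIs of the 13 HGF scaffold nuclei, at which 1 UMI is worth 48.0 CPM, single nuclei that hold most of a gene's UMIs, and nuclei with markers of other lineages.

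The HGF scaffold share of 1.43% became 4.42% with at least 2 of the 5 genes, 0.442% with at least 4, 3.20% with no limit on the 7 genes and 0.773% for high-share nuclei alone. The scaffold share of 1.94% became 5.72%, 0.646% and 6.55% in the same order, 1.01% with at most 3 of the 7 genes, 2.78% over nuclei without 3 or more markers of a lineage outside the immune system, 1.25% after thinning each nucleus to 500 UMIs, and 0.738% for high-share nuclei alone, a setting chosen after seeing the data. The ratio of the shares, 0.741, became 0.363 without the nuclei with such markers and 1.05 for high-share nuclei, with an interval of 0.364 to 2.69.

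The number of genes at least 2-fold different from other myeloid nuclei in the HGF scaffold library, 1610, became 701 without nuclei with other markers, 262 after thinning and 2489 with no UMI minimum. In the scaffold library 1744 became 1110 with at least 2 of the 5 genes, 408 with no limit on the 7, 729 after thinning and 2807 with equal weight per nucleus. Between HGF scaffold and scaffold 5-gene nuclei 551 became 887 with at least 2 genes, 223 with at least 4, 205 with at most 3 of the 7, 1550 with no limit, 58 without nuclei with other markers, 21 after thinning, 88 in high-share nuclei, and 1043, 149 and 2603 with a minimum of 10, 50 and 1 UMIs.

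Several named genes changed direction, given as log2 ratios, and the cause was not tested. Over other myeloid nuclei in the scaffold library these were Lgals3 (0.21 after thinning), Adgre1 (0.095 in high-share nuclei) and Met (0.16 with at least 2 of the 5 genes, 0.43 with no limit on the 7). Nrg1 there was -1.22 with at least 4 genes, -0.76 with at most 3 of the 7, -0.51 without nuclei with other markers and -1.19 after thinning. Nrxn3 was -2.25 with at most 3 of the 7, -0.32 without nuclei with other markers, -0.83 after thinning and -2.03 in high-share nuclei. For HGF scaffold over scaffold 5-gene nuclei they were, after thinning, Slpi (-0.48), Cxcl1 (-0.42), Nos2 (-0.92) and Slc2a1 (-1.22). In high-share nuclei they were Slpi (-0.0089), Nos2 (-0.40) and Dgat2 (-0.034). Cxcl3 was -0.35 without its top nucleus, also chosen after seeing the data, and Bcl2l1 was -0.069 with no limit on the 7 genes. Of genes under 2-fold whose interval lay on 1 side of 1, these also changed direction: over other myeloid nuclei in the scaffold library Csf1r (0.040 in high-share nuclei), Tenm2 (from -2.52 with at most 3 of the 7 genes to -0.081 with no limit on the 7, in 6 settings) and Ncf1 (0.064 with no limit on the 7 genes, 0.91 after thinning), and between HGF scaffold and scaffold 5-gene nuclei G0s2 (0.20 with at least 4 genes) and Nfkbia (-0.88 in high-share nuclei, -0.69 after thinning, -0.39 with equal weight per nucleus).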

Other observations

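A pair of cytokine subunit genes was seen in few nuclei. Ebi3, a subunit of interleukin-27 and interleukin-35, had 4 UMIs in 3 HGF scaffold and 30 UMIs in 11 of 42 scaffold 5-gene nuclei, 9.18-fold (interval 2.26 to 27.9) and 8.55-fold (5.52 to 12.9) above other myeloid nuclei of the same library. Il23a, a subunit of interleukin-23, had 1 UMI in the HGF scaffold and 10 UMIs in 5 scaffold 5-gene nuclei, where it was 20.5-fold higher (8.31 to 48.0) and 10.4-fold without the nucleus that held 5 of the 10. Dgat2, which makes triglycerides, was 21.6-fold higher in the HGF scaffold (9.42 to 46.9, 4 of 13 nuclei) and 3.54-fold higher in the scaffold 5-gene nuclei (2.08 to 5.70, 16 of 42 nuclei).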
